A study of Mus musculus with 8 samples.

Results

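The Schlafen genes (Slfn) were examined in L929 cells, a mouse fibroblast line, with and without ectopic IRF8. Members were all array probes whose platform gene symbol is Slfn1, Slfn2, Slfn3, Slfn4, Slfn5, Slfn8 or Slfn9. This gave 8 probes for 7 genes, out of 25697 probes and 16593 named genes on the array. Slfn9 has 2 probes and each other member has 1. The related Slfnl1 has a probe, while Slfn10-ps and Slfn14 have none under those symbols.

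RNA was measured on Illumina mouse bead arrays in 4 groups of 2 replicates each: L929IRF8 cells given interferon beta (IFNβ, 1000 U/ml for 4 h), L929 cells given the same treatment, unstimulated L929IRF8 cells and unstimulated L929 cells. IRF8, an interferon regulatory factor, is made chiefly by myeloid and B cells. The series title names L929 against L929IRF8 after IFNβ as its comparison. How IRF8 was introduced, the clonality of L929IRF8 and any vector in the parental cells are not stated in the labels. The replicates are described as independent, with no separate cultures named, so the p-values measure the spread between these arrays, which may be partly technical. The only probe for Irf8 gave intensities of -2.3 to 7.8, in the background range, over all 8 arrays. Ectopic IRF8 could therefore not be seen at this probe, and whether the probe lies in the introduced sequence is not known.

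Schlafen proteins share an N-terminal core domain and fall into short (Slfn1, Slfn2), intermediate (Slfn3, Slfn4) and long forms (Slfn5, Slfn8, Slfn9), the last with a helicase-like C-terminal part. The family is best known from lymphocytes and myeloid cells, where several members respond to type I interferon, and members have been linked to cell quiescence and to the handling of tRNA and control of translation. Type I interferon acts through a cell surface receptor and its kinases, and many of the genes it induces carry an interferon-stimulated response element (ISRE) in their promoters. IRF8 binds ISRE-like sites, and, together with ETS factors such as PU.1, composite ETS-IRF sites.

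The 7 genes lie in one cluster on mouse chromosome 11 (GRCm38.p6, RefSeq), from Slfn5 at chr11:82951349-82964850 to Slfn3 at chr11:83191330-83215154. Between these ends lie Slfn9 (chr11:82974316-82991830), Slfn8 (chr11:83002125-83020810), Slfn2 (chr11:83065112-83070678), Slfn1 (chr11:83116820-83122670) and Slfn4 (chr11:83175172-83190216). Slfnl1 lies on chromosome 4. RefSeq promoter windows, 250 bases before to 50 bases after an annotated start, were found for 7 of 7 members. They were searched on both strands for the ISRE (GAAA and GAAA with 2 bases of any kind between them), the gamma-activated site or GAS (TTC and GAA with 3 bases between them) and the composite ETS-IRF site (GGAA and GAAA with 2 bases between them). An ISRE match can overlap a composite match only in part, never at the same position.

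ISRE matches were found in the windows of Slfn5, Slfn9 and Slfn8, against 3.44% of all 32851 windows in the table. A composite match was found in the window of Slfn2, against 2.72% of all windows. GAS matches, present in 8.3% of all windows, were in none of the members' windows, and the windows of Slfn1, Slfn3 and Slfn4 held none of the 3 motifs. A match is a description of letters and not a binding site, and a window without one says nothing of elements farther away. The 4 windows that hold a match are shown as the 250 bases before the start, in the direction of transcription, with the match in capitals (5′ to 3′). Slfn2 lies on the plus strand (chr11:83064862-83065111), Slfn9 on the minus strand (chr11:82991831-82992080), Slfn8 on the minus strand (chr11:83020811-83021060) and Slfn5 on the plus strand (chr11:82951852-82952101).
Slfn2: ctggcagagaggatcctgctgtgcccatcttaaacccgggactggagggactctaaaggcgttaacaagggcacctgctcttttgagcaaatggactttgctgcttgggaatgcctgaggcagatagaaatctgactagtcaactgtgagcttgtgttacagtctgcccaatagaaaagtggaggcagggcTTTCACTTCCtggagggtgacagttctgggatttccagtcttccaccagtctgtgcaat
Slfn9: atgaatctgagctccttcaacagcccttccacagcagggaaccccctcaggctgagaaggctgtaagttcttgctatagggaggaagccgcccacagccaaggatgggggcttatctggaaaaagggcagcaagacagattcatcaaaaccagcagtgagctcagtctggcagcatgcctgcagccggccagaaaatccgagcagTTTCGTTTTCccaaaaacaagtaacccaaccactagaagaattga
Slfn8: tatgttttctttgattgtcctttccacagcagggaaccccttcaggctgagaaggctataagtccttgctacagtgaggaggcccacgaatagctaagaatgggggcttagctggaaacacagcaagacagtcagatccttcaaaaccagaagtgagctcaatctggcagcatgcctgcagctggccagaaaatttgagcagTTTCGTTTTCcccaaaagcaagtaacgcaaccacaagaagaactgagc
Slfn5: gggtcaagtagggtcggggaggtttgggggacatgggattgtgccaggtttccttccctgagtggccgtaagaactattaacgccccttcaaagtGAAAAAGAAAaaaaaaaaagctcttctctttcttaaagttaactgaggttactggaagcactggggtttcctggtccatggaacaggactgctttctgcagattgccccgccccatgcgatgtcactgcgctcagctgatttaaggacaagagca

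In Slfn9 and Slfn8 the match is the same, TTTCGTTTTC, which reads GAAAACGAAA on the opposite strand, and it begins 45 bases before the Slfn9 start and 48 bases before the Slfn8 start. These windows are related: 80.7% of the positions of their alignment were identical, against 42.0% to 50% for the other pairs of members. Their matches are therefore not separate observations. A second Slfn8 window, for a start farther downstream, overlaps the first and holds that match too. The Slfn5 match, GAAAAAGAAA, begins 155 bases before the start of its window and runs into a stretch of A. That start is an annotated one inside the gene, downstream of the gene's first base given above. The Slfn2 match reads GGAAGTGAAA on the opposite strand and begins 59 bases before the start.

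**Figure D1:**
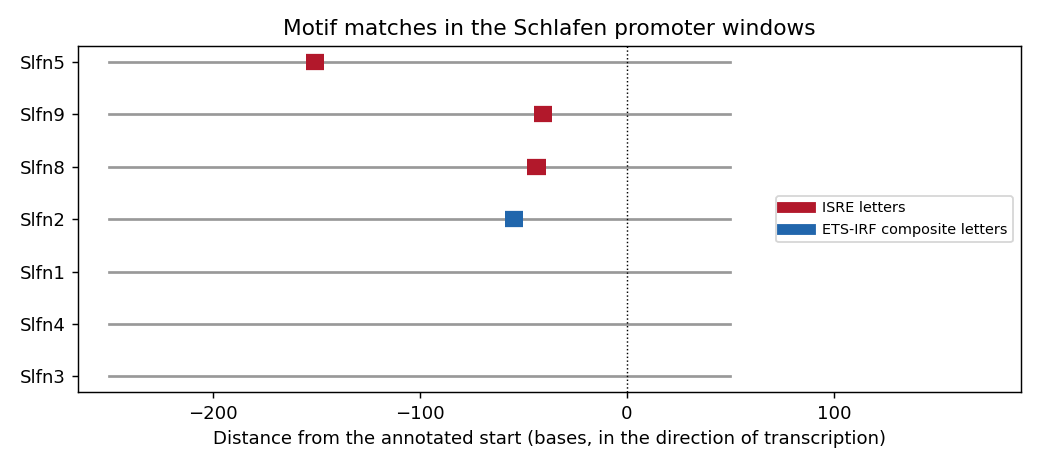
Motif matches in the promoter windows of the 7 Schlafen genes. The x axis is the distance in bases from the annotated start, each grey line is a window from 250 bases before to 50 after the start (for Slfn8 the window of the upstream start), and coloured blocks are matches on either strand. Slfn9 and Slfn8 carry an ISRE match at nearly the same distance, Slfn5 carries one farther upstream, and Slfn2 carries a composite match.

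Levels are given as deposited, in linear intensity units. Some values are negative, as after background subtraction, so a probe without signal reads near or below 0. The size of the lowest value on any array, 23.7, served as the bound of background. Of the 8 Schlafen probes, 3 exceeded this bound on any array, and 2 exceeded it in the mean of any group, Slfn2 and one of the probes for Slfn9. The remaining 5 stayed between -12.7 and 7.9 on all 8 arrays. These 5 have only an upper limit, and levels of different probes are not set against each other. A probe at background does not show a silent gene. The brightest probe of Ifit1, a classical interferon target, also read under the bound on all arrays, and the reason was not tested.

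Slfn2 was the member with a clear signal. This short Schlafen keeps T cells and monocytes quiescent in mice. Its probe (ILMN_1219074) read 498.6 and 578.5 in IFNβ-treated L929IRF8 cells, against 17.3 and 24.7 in unstimulated L929IRF8 cells. In L929 it read 532.2 and 516.9 after IFNβ, against 26.6 and 26.1 without. All 4 treated arrays were high and all 4 unstimulated arrays lay at or near the bound, so the groups did not overlap in either line.

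Slfn2 rose 19.9-fold in L929 with IFNβ, a ratio of geometric means. This size is rough, since the unstimulated L929 values of 26.6 and 26.1 lay close to the bound of 23.7. In L929IRF8 Slfn2 rose at least 22.2-fold, since 1 of the 2 unstimulated arrays lay under the bound and was raised to it. Tests were run on log2(intensity + 16) with limma across all 25697 probes, with Benjamini-Hochberg adjustment and a threshold of 0.05. The offset makes these log2 changes smaller than the folds. The log2 change was 3.91 ± 0.12 (SE) in L929IRF8 (limma adjusted p = 0.00111) and 3.67 ± 0.12 in L929 (limma adjusted p = 0.00124). In a fit on the 4 arrays of each line alone, which leaves few residual degrees of freedom, the L929IRF8 call was lost (limma adjusted p = 0.115) and the L929 call was kept (0.0237).

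Slfn9, a long Schlafen, had 2 probes that read differently. Probe ILMN_1249005 read 36.4 and 21.0 in IFNβ-treated L929IRF8 cells, against -5.5 and 0.2 in unstimulated ones. In L929 it read 41.9 and 24.0 after IFNβ, against -4.1 and 5.6 without. The treated arrays were above the unstimulated arrays in both lines, and 3 of the 4 treated arrays passed the bound. Probe ILMN_2688948 stayed between -11.9 and -5.2 on all 8 arrays. The probes are annotated to the same transcript, and the reason for the disagreement was not tested.

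The log2 change of the brighter Slfn9 probe was 1.45 ± 0.28 in L929IRF8 and 1.37 ± 0.28 in L929 (SE), and neither passed (limma adjusted p = 0.158 and 0.172). With values raised to the bound the ratios were at least 1.24 in L929IRF8 and at least 1.34 in L929. For the mean of both lines' effects, a contrast added after the data were seen, the log2 change was 1.41 ± 0.20 and passed narrowly (limma adjusted p = 0.049), where 1.49% of all probes were called higher. Slfn2 and Slfn1 passed in that contrast too, so 3 of 8 Schlafen probes were called higher, but the Slfn1 call was lost with 40 added (adjusted p = 0.396) and with values raised to the bound (1.0). The Slfn9 call was lost when any 1 of the 8 arrays was left out (log2 change 1.278 to 1.545). The Slfn9 call was also lost with the replicate number as a block (limma adjusted p = 0.0761), with a larger offset of 64 (0.0803) and with values raised to the bound (1.0). It was kept with a variance trend (0.0466) and with 40 added to each value in place of the floor at 0 (0.00333). Slfn8, the neighbour with the related promoter window, read below 0 on every array, between -12.7 and -6.5, so its level has only an upper limit.

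Slfn1, a short Schlafen that slows growth when overproduced in T cells, read 3.6 and 4.4 in IFNβ-treated L929IRF8 cells, against -1.5 and -5.4 in unstimulated ones. In L929 it read 6.1 and 6.8 after IFNβ, against -0.8 and 0.1 without. The treated arrays were higher in both lines, yet all 8 values lay under the bound, so no fold is given. The probe passed the test with a log2 change of 0.32 ± 0.03 (SE) in L929IRF8 (limma adjusted p = 0.028) and 0.48 ± 0.03 in L929 (limma adjusted p = 0.00815). Values below 0 had been set to 0 before the logarithm, which takes away the spread among the unstimulated arrays. When values below 0 kept their order (40 added to each value, an alternative chosen after the data were seen), neither call held (limma adjusted p = 0.694 in L929IRF8 and 0.791 in L929). The L929IRF8 call was also lost with an offset of 64 (0.0694), in the fit on that line's arrays alone (0.211) and without either L929 IFNβ array, either L929IRF8 unstimulated array or either L929 unstimulated array (0.0645 to 0.0908). The L929 call was also lost in the fit on the L929 arrays alone (0.103).

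The remaining members gave values near background. Slfn4, an intermediate Schlafen known as an interferon-responsive gene of macrophages, read between -5.5 and 6.6 on all arrays. Slfn5, a long Schlafen, read between -7.3 and 7.9. After IFNβ its L929 replicates stood at -7.3 and 7.9, so 1 array carries all of the positive signal in that group, and without L929 IFNβ replicate 1 the probe was called higher with IFNβ in L929 (limma adjusted p = 0.0194) and lower in L929IRF8 than L929 after IFNβ (0.0337), with all groups under the bound. The remaining array was then the only one of its group and was assumed to vary like the other groups, in which most Slfn5 values had been set to 0. Slfn3, an intermediate Schlafen linked to differentiation of gut epithelium in the rat, read -0.8 and 12.4 in IFNβ-treated L929IRF8 cells, 5.8 and 3.8 in IFNβ-treated L929 cells, 4.6 and -0.5 in unstimulated L929IRF8 cells, and 23.8 and 7.3 in unstimulated L929 cells. Its 1 value above the bound was not matched by the second replicate of that group. None of these 3 members passed in either line when all arrays were used.

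**Figure D2:**
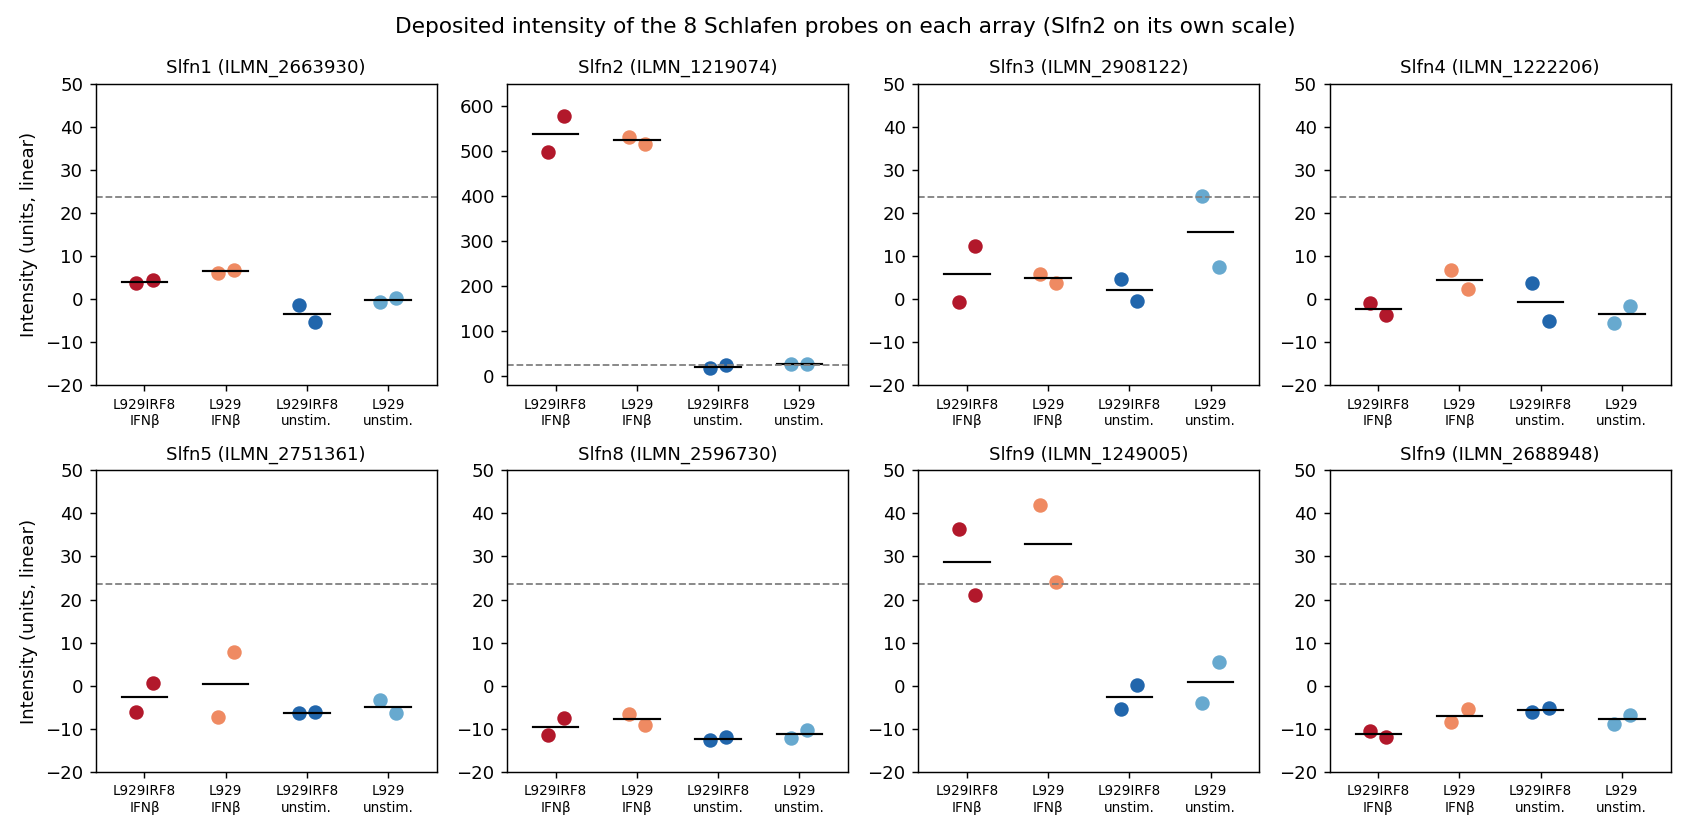
Deposited intensity (linear units) of each Schlafen probe on the 8 arrays, by group. Points are single arrays, short black lines are means of the 2 arrays, and the dashed line is the background bound of 23.7; Slfn2 has its own axis range. Slfn2 stands at 498.6 to 578.5 after IFNβ and at 17.3 to 26.6 without, and 1 of the 2 Slfn9 probes passes the bound on 3 treated arrays.

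Counted by gene, with the brightest probe of each, 2 of 7 members (Slfn2 and Slfn1) passed as higher with IFNβ in each line and 0 as lower. Counted in the same way, of all 16593 named genes 153 were called higher and 42 lower in L929IRF8, and 181 higher and 53 lower in L929. Over all probes, 0.864% were called higher and 0.21% lower in L929IRF8, and 0.996% higher and 0.28% lower in L929. The members' median log2 change was 0.23 in L929IRF8 and 0.35 in L929, against -0.01 over all named genes in each line. These medians are the changes of Slfn3 in L929IRF8 and Slfn4 in L929. Neither was called, and all values compared lay under the bound, so the medians do not describe a rise of the family. Only 1 of the 2 called members, Slfn2, had a level above background.

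A difference between the lines was not detectable for Slfn2. After IFNβ, Slfn2 averaged 538.55 ± 56.5 in L929IRF8 and 524.55 ± 10.8 in L929 (SD, n = 2 each), and the L929 arrays lay between those of L929IRF8. The log2 difference was 0.03 ± 0.12 (SE, limma adjusted p = 1.0), with a 95% interval of -0.28 to 0.35. As a ratio of intensities with the offset added, this interval is 0.824 to 1.27, and the offset is small beside these levels. Larger differences in either direction lie outside the interval, and smaller ones cannot be told from 0 with 2 arrays a group.

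In unstimulated cells the Slfn2 probe averaged 21.0 ± 5.23 in L929IRF8 and 26.35 ± 0.354 in L929 (SD, n = 2 each), close to the bound (log2 difference -0.20 ± 0.12, SE, limma adjusted p = 0.967, and -0.347 to -0.057 with 1 array left out). Both L929IRF8 arrays were under both L929 arrays. The IFNβ effect on Slfn2 differed between the lines, L929IRF8 minus L929, by 0.24 ± 0.17 on the log2 scale (95% interval -0.21 to 0.68, limma adjusted p = 1.0). With 1 array left out it was 0.091 to 0.380.

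For the brighter Slfn9 probe, L929IRF8 and L929 averaged 28.7 ± 10.9 and 32.95 ± 12.7 after IFNβ (SD, n = 2 each) and overlapped. The log2 difference was -0.13 ± 0.28 (SE), with a 95% interval of -0.86 to 0.60. As a ratio of intensities with the offset added, this interval is 0.551 to 1.52. The offset is large beside these levels, so this range is too narrow for the ratio of the intensities themselves, which was not computed. In both lines replicate 1 was above replicate 2 after IFNβ. The IFNβ effects of the lines differed by 0.08 ± 0.39 (SE). In the comparison of the lines after IFNβ, 0 of 8 Schlafen probes were called, against 0.00389% of all probes called lower and 0 called higher. In unstimulated cells 0 of the 8 were called, against 0.0156% of all probes, and for the difference between the IFNβ effects also 0, against 0.00389%. By limma's unadjusted p under 0.05, 1 of the 8 probes, Slfn1, passed after IFNβ and for the difference of effects (lower in L929IRF8, all values under the bound), and 0 passed in unstimulated cells. Over all probes 4.99%, 5.52% and 4.77% had such a p after IFNβ, in unstimulated cells and for the difference of effects.

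**Figure D3:**
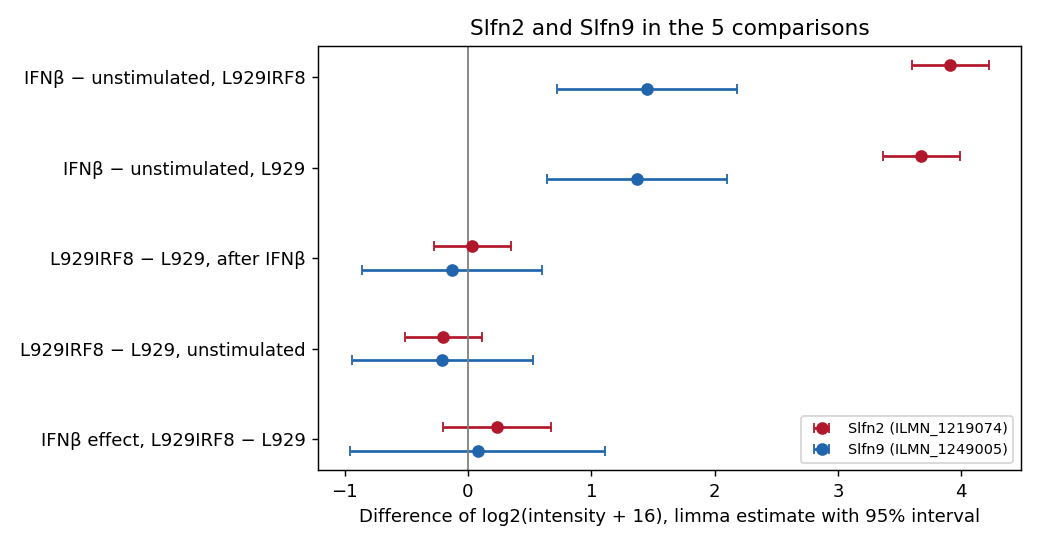
Limma estimates for Slfn2 and the brighter Slfn9 probe in 5 comparisons. The x axis is the difference of log2(intensity + 16), points are estimates from the fit on all 8 arrays, and bars are 95% intervals. The IFNβ effects stand near 3.9 and 3.7 for Slfn2 and 1.5 and 1.4 for Slfn9 in L929IRF8 and L929, and every interval for a difference between the lines includes 0.

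None of the measured genes around the members on chromosome 11 passed. The 8 nearest protein-coding genes on each side of the stretch from Slfn5 to Slfn14 have 15 genes with a probe among them, of which 8 were above the bound on all arrays. With IFNβ 0 of the 15 were called in L929IRF8 and 0 in L929 by limma, and their median log2 changes were -0.01 and 0.00. In L929IRF8 the highest log2 change was that of Taf15, an RNA-binding protein (0.89 ± 0.70, SE), and the lowest that of Lig3, a DNA ligase (-0.55 ± 0.25). In L929 the highest was that of Rad51d, a DNA repair gene (0.31 ± 0.12), and the lowest that of Mmp28, a matrix metalloproteinase (-0.34 ± 0.15). The 13 other annotated genes inside the stretch, Slfn10-ps and Slfn14 among them, have no probe under their symbols. Slfnl1, outside the cluster, stayed between -0.4 and 17.4 on all arrays and was not called.

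Type I interferon signalling was read from a list of 15 genes, 14 of them on the array. In each line 6 rose with IFNβ (among them Irf1, Irf2, Irf7 and the feedback inhibitor Usp18) and 0 fell, with median log2 changes of 0.65 in L929IRF8 and 0.73 in L929. The highest fitted changes were those of Usp18, with 8.72 in L929IRF8 and 8.73 in L929, and Irf7, with 4.75 and 4.96. Unstimulated arrays read under the bound for Irf7, and for Usp18 on all but 1 array, so these sizes depend on the offset of 16 and are not measured folds. The lowest was that of Ifnb1 in L929IRF8 (-0.18), with values under the bound, and of Socs3 in L929 (-0.18), neither of which passed. The receptor gene Ifnar2 was above the bound on all arrays.

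Of 19 interferon-linked genes that act on RNA or translation, 17 were on the array. In each line 13 rose and 0 fell with IFNβ, with median log2 changes of 3.86 in L929IRF8 and 3.77 in L929. The Slfn2 changes of 3.91 and 3.67 were close to these medians. The highest fitted changes in this list were those of Ifit3 (8.50 in L929IRF8 and 9.05 in L929), which encodes an RNA-binding antiviral protein, and Oasl2 (8.42 in each line), a relative of the oligoadenylate synthetases. Their sizes also depend on the offset, since unstimulated arrays read under the bound for Oasl2 and, on all but 1 array, for Ifit3. The smallest changes were those of Shfl, -0.193 in L929IRF8 and -0.185 in L929, which did not pass and lay under the bound. After IFNβ the difference between the lines was below 0 for 15 of the 17, with a median of -0.25 (L929IRF8 minus L929). Over all named genes 7281 of 16593 were below 0, with a median of 0.0. Only 1 of the 17, Oas1b, passed, as lower, at 214.8 and 217.8 in L929IRF8 and 482.9 and 499.9 in L929. Its unstimulated values, -10.5 to -3.2, had all been set to 0, which takes away part of the spread in the fit. The Oas1b call was the single call over all probes, and none was made with the replicate block, with probes above the bound only or with the compared arrays only. Slfn2 had a difference of 0.03 beside this median. Whether Slfn2 and the list differ in this respect was not tested.

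**Figure D4:**
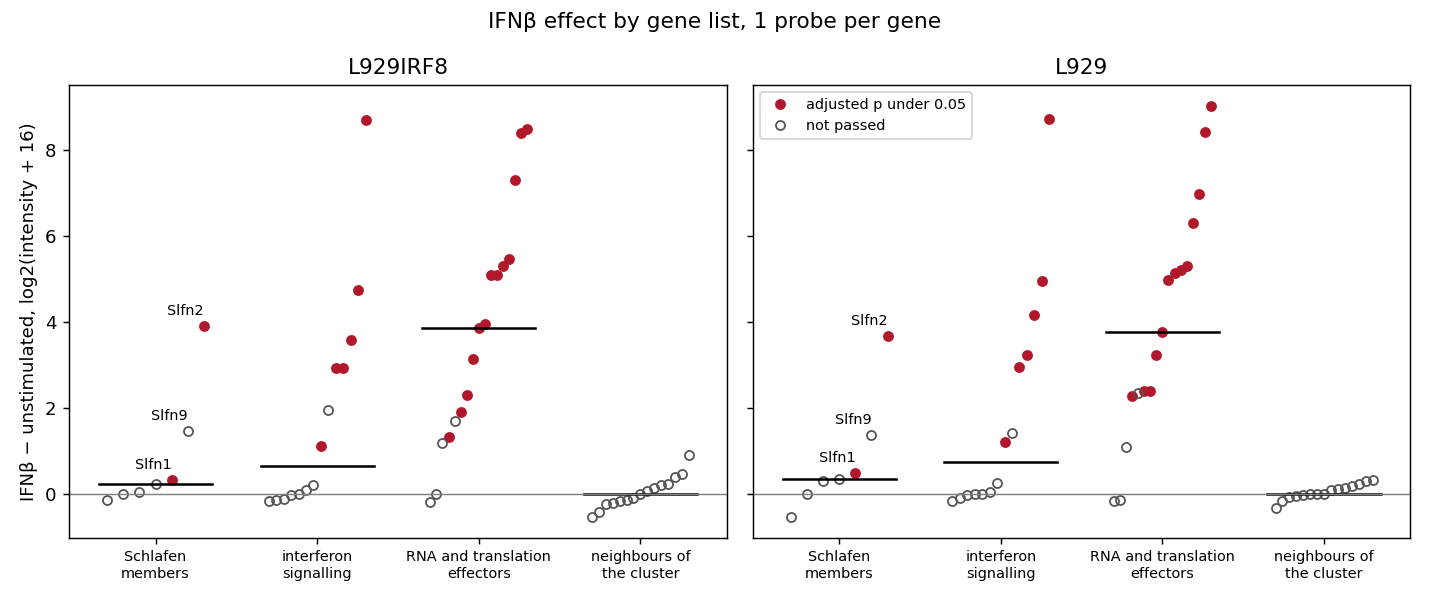
IFNβ effect (difference of log2(intensity + 16), treated minus unstimulated) for the brightest probe of each gene, in L929IRF8 on the left and L929 on the right. Filled points passed at an adjusted p under 0.05, open points did not, and black lines are medians. Slfn2 lies near the median of the RNA and translation effectors in both panels, the other members lie between it and 0 or below, and the neighbours of the cluster lie around 0.

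Genes whose values ran most like those of Slfn2 over the 8 arrays were Tor3a, an interferon-responsive torsin ATPase (Pearson r = 0.9977), Irgm1, an immunity-related GTPase (0.9976), Usp18 (0.9971), Oasl2 (0.9971) and Nrap (0.997). For Slfn9 they were Aftph (0.9952), Scarb2 (0.9908), Oas3 (0.9893), Sp140 (0.9851) and Rbms2 (0.9849). These are descriptions over 8 arrays that share one treatment contrast. Of 11460 probes considered, 234 others reached a correlation over 0.95 with Slfn2 and 167 with Slfn9, so the named genes are a small part of a large group with this shape.

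Because Schlafen genes are best known from immune cells, the levels of cell type markers were read beside them. Of 11 fibroblast markers on the array, 8 were above the bound on all arrays, among them Vim, Col1a1, Col5a1 and Sparc, while Thy1, Dcn and Lum were under it on all arrays. Pdgfra, a growth factor receptor, fell with IFNβ in L929IRF8 (log2 change -0.96, limma adjusted p = 0.0239), and the highest change there, that of the collagen gene Col3a1 (0.77), did not pass (0.0744). Of 7 lymphoid markers 6 were under the bound on all arrays, and Cd3g was above it with a highest value of 133.4. Of 6 myeloid markers 4 were under the bound, including Itgam, Spi1 and Adgre1, and Cd14 was above it on all arrays. Summed over each list, with values below 0 counted as 0, the lymphoid markers came to 84.1 to 107.5 and 103.2 to 158.9 in treated L929IRF8 and L929 arrays, and 87.3 to 117.4 and 78.2 to 110.3 in unstimulated ones. The myeloid sums were 140.3 to 180.5 and 103.6 to 187.7 in treated arrays, and 123.3 to 180.0 and 111.8 to 150.0 in unstimulated arrays. These ranges overlapped between treated and unstimulated arrays. Of 6 epithelial and endothelial markers 3 were under the bound on all arrays and none was above it on all. Their sums were 82.6 to 92.5 and 91.5 to 95.5 in treated L929IRF8 and L929 arrays, and at most 76.2 and 71.0 in unstimulated ones, so these ranges did not overlap. The highest single value among these markers was 44.4, for Kdr, so the sums are made up of values near or under the bound. Of these markers 0 of the 6 passed in either line, and their part in the Slfn2 result was not tested. Of all immune markers, Adgre1 in L929 was called higher with IFNβ (limma adjusted p = 0.011), with all values under the bound. Fewer transcribing cells and less RNA per cell cannot be told apart in such bulk RNA.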

How the data were processed

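Illumina bead array values of 8 arrays were used as deposited. The deposited values are linear intensities; per the labels, RNA was amplified and biotin-labelled with an Illumina TotalPrep kit. Processing tools: not given in the sources used here. The deposited intensities fell below 0 for 28.1% to 28.3% of probes, as after background subtraction, and sorted values of the arrays differed by at most 1.7 units, as after quantile normalization. They were not normalized again, and a shift of the whole transcriptome could not be seen. Probe names came from the platform annotation (23978 probes with 1 symbol, 0 with several, 1719 with none), and positions and promoters from RefSeq tables of GRCm38.p6. All 8 member probes' transcripts were found there.

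The log2 was taken of each intensity plus 16, with negative intensities replaced by 0. Limma 3.58.1 in R 4.3.3 fitted 1 coefficient per group to all 8 arrays (4 residual degrees of freedom, 0.684 added by eBayes), with Benjamini-Hochberg adjustment over all 25697 probes. The script was tested on simulated data. The number of arrays limits the precision. All members were described, genes alike were the 5 best correlated, and from the pathway lists the 2 largest changes and the smallest were named, from the neighbours the highest and lowest, and from the marker lists those above or under background or called. The members and lists were chosen with earlier results of these data known. Alternatives tried were the offset, the floor, a filter on dim probes, the replicate block, median centring, a variance trend, the arrays in the fit and leaving out each array.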

Additional observations from a re-analysis of the deposited data

How the results depend on the processing

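Slfn2 was higher with IFNβ in both lines under all 16 alternatives. Many of these left its log2 change at 3.674 in L929 and 3.909 in L929IRF8, so their direction is not separate support. They were the probe filter, replicate block, median centring, variance trend, compared arrays only and leaving out an array of the other line. Slfn2 also passed the probe filter mainly through its treated arrays. The Slfn2 call was kept under all 16 in L929 and under 15 in L929IRF8. The exception was the fit on the arrays compared alone, which uses fewer arrays and left the log2 change at 3.909 (adjusted p = 0.115). With IFNβ in L929, the number of Schlafen probes called was 2, and 1 with values raised to the bound, with the compared arrays only and with 40 added. It was also 1 with probes above the bound only, a filter that left Slfn2 as the only Schlafen probe tested in every comparison. In L929IRF8 it was 2, and 1 with an offset of 64, with values raised to the bound, with probes above the bound only and with 40 added, and 0 with the compared arrays only. For both lines together it was 3, 2 with an offset of 64, the replicate block or 40 added, and 1 with values raised to the bound or probes above the bound only. With any 1 array left out these counts were 2 to 3 in L929, 1 to 2 in L929IRF8, 2 to 3 for both lines and 0 to 1 between the lines after IFNβ.

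Over all probes, IFNβ called 328 in L929 (182 with values raised to the bound, 9 with the compared arrays only, 217 to 469 with 1 array left out), 276 in L929IRF8 (170, 1, and 135 to 526) and 568 for both lines (348 with the bound, and 501 to 717). Between the lines after IFNβ 1 was called, against 6 with the bound, 19 with a variance trend, 10 with 40 added, 0 with probes above the bound only, the compared arrays only or the replicate block, and 0 to 266 with 1 array left out. In unstimulated cells 4 were called, against 19 with the trend, 0 with an offset of 64, probes above the bound only, the compared arrays only, 40 added or the replicate block, and 0 to 264 with 1 array left out. For the difference of effects 1 was called, against 8 with the bound, 11 with the trend, 0 with probes above the bound only, 40 added or the replicate block, and 0 to 142 with 1 array left out.

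Some small differences changed sign. The Slfn9 difference of effects was -0.005 with an offset of 64, -0.111 with the bound, and -0.172, -0.137 and -0.187 without L929IRF8 IFNβ replicate 1, L929 unstimulated replicate 2 and L929 IFNβ replicate 2 (range -0.187 to 0.346). That of Slfn1 was 0.041 with 40 added. After IFNβ, L929IRF8 minus L929 was -0.071 for Slfn2 when L929IRF8 IFNβ replicate 2 was left out (range over arrays left out -0.071 to 0.137). For Slfn9 it was 0.139 when replicate 1 of L929 with IFNβ was left out and 0.123 when replicate 2 of L929IRF8 with IFNβ was (range -0.395 to 0.139). In unstimulated cells it was 0.009 for Slfn9 without L929 unstimulated replicate 2 (range -0.424 to 0.009). The cause was not tested. Same-numbered arrays deviated together (r = 0.441 to 0.523 over probes, 6 pairs of groups), but with 2 numbers and no label for a shared batch the number was not taken as a pairing. The block left the calls of Slfn2 and Slfn1 in each line in place. The added alternatives, 40 added without a floor and the contrast over both lines, were chosen after seeing the data. Signal over background limits 5 of the 8 probes to an upper bound.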
